A study of Mus musculus with 6 samples.

Results

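The resident macrophage and leukocyte markers are 10 genes, *Cd68*, *Adgre1*, *Cd163*, *Mrc1*, *Lyz2*, *C1qa*, *C1qb*, *C1qc*, *Lyve1* and *Ptprc*, of the 37979 genes in an RNA-seq table of mouse gastrocnemius (GAS) muscle. They were chosen by name, as genes known to mark these cells, and all 10 were found, 9 by symbol and *Adgre1* by its gene identifier, since the table lists it under its older symbol *Emr1*. The table compares 3 wild-type (WT) mice with 3 knockout (KO) mice lacking both copies of *Kcnab2*, the gene of the Kvβ2 subunit of voltage-gated potassium channels. All mice were males of 20 weeks bred from Kvβ2+/- null parents, none was treated, and each gave 1 library from whole muscle. The null allele is present in every cell, so the genotype of the muscle fibers and that of the leukocytes cannot be told apart. The libraries carry the numbers 1, 7 and 8 in each genotype.

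Skeletal muscle holds resident macrophages between its fibers, where they clear debris and dying cells and take part in regeneration. Many carry scavenger and lectin receptors such as CD163, the mannose receptor and LYVE1. Tissue macrophages are also the main source of C1q, the recognition molecule of the classical complement pathway, which is built from 3 kinds of chain encoded by *C1qa*, *C1qb* and *C1qc*. Values are FPKM, the sequenced fragments of a gene divided by its transcript length and by the size of the library, so levels can be compared between genes. In whole muscle, fewer cells of a type and less RNA per cell cannot be told apart.

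None of the 9 markers that reached the test's floor, a mean of 0.5 FPKM over the 6 libraries, differed between the genotypes by limma at an adjusted p under 0.05. Over all 12334 tested genes, 40 passed, or 0.324%, of which 31 were higher in KO (0.251%) and 9 lower (0.073%). That split was 11 and 7 with upper-quartile scaling and 6 and 8 after correction for GC content. At an unadjusted p under 0.05, 0 of the 9 passed, against 26.2% of all tested genes. The 9 fitted log2 fold changes, KO over WT, were all above 0, where 51% of all tested genes were, and their median was 0.58 against 0.010 over all tested genes. Adjusted p-values ran from 0.197 to 0.772. For 0 of the 10 markers did the 3 KO libraries stand clear of the 3 WT libraries, while 18.3% of all tested genes had every KO library above every WT library and 16.2% had every KO library below.

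The markers varied widely between libraries of the same genotype. KO 7 was the highest of the 6 libraries for 10 of 10 markers, as it was for 21.4% of all tested genes. WT 1 was the lowest for 9 of 10, *Ptprc* being the exception, and for 28.8% of all tested genes. Both held for 9 markers and for 8.7% of all tested genes. The summed FPKM of the 10 markers was 23.1, 40.5 and 49.1 in WT 1, 7 and 8 and 34.1, 76.8 and 47.0 in KO 1, 7 and 8. On the log2(FPKM + 0.1) scale, the median distance between the highest and the lowest WT library was 1.50 for the tested markers and 0.38 for all tested genes. Within KO it was 1.15 against 0.36. The distance within WT was larger than the fitted log2 fold change for 9 of the 9 tested markers. A range over libraries tends to exceed a difference of group means even where nothing differs. The share over all tested genes was not computed, so that count is not read as a result about the markers.

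**Figure D1:**
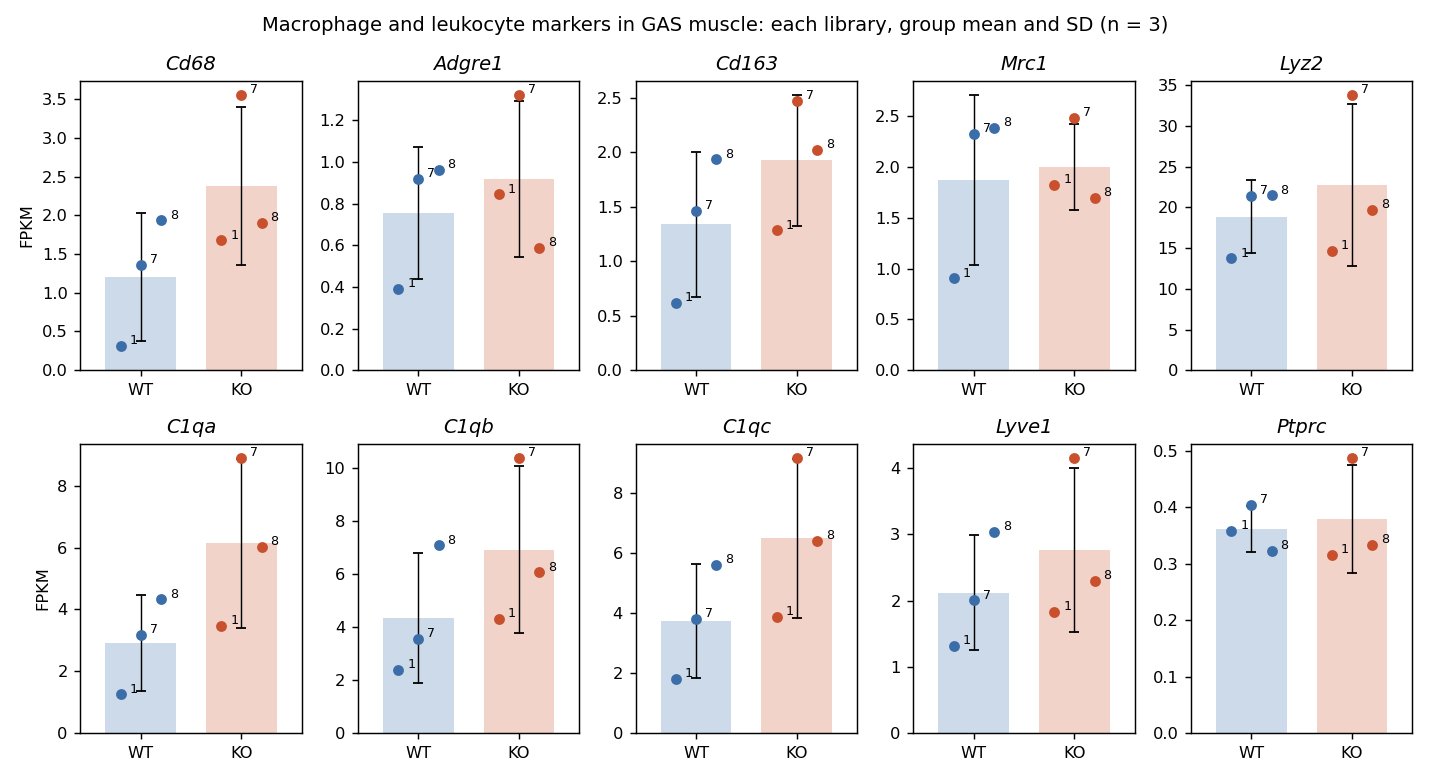
FPKM (y axis, linear, from 0) of each of the 10 markers in the 3 WT and 3 KO libraries, with a point and its replicate number for each library and a bar for the mean ± SD. KO 7 is the highest point in all 10 panels, WT 1 is the lowest in 9, and the genotypes overlap in each.

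The median log2 fold change of the 9 tested markers was 0.38 without KO 7 and 0.14 without WT 1. With both left out, a choice made after their values were seen and one that lowers the difference by construction, it was -0.055, and 5 of the 9 were below 0. Sequencing depth and a trend on GC content separated the genotypes without overlap, so neither can be told apart from the genotype here. The number of fragments, estimated from the steps between low FPKM values, was 13960000 to 18150000 in the KO and 19240000 to 20140000 in the WT libraries. A gene's deviation from its mean followed its GC content, with Spearman's rho over genes of -0.605, -0.449 and -0.302 in WT 1, 7 and 8 and of 0.385, 0.566 and 0.469 in KO 1, 7 and 8. After correction for GC content, KO 7 was still the highest and WT 1 still the lowest for 9 of the 9 tested markers, against 21.2% and 22% of all genes, and their median log2 fold change was 0.48. *Kcnab2* itself was near its detection limit, at 0.233, 0.10 and 0.110 FPKM in WT and 0, 0.0151 and 0 FPKM in KO (p = 0.1 by a two-sided exact permutation test, which 3 against 3 libraries cannot pass).

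**Figure D2:**
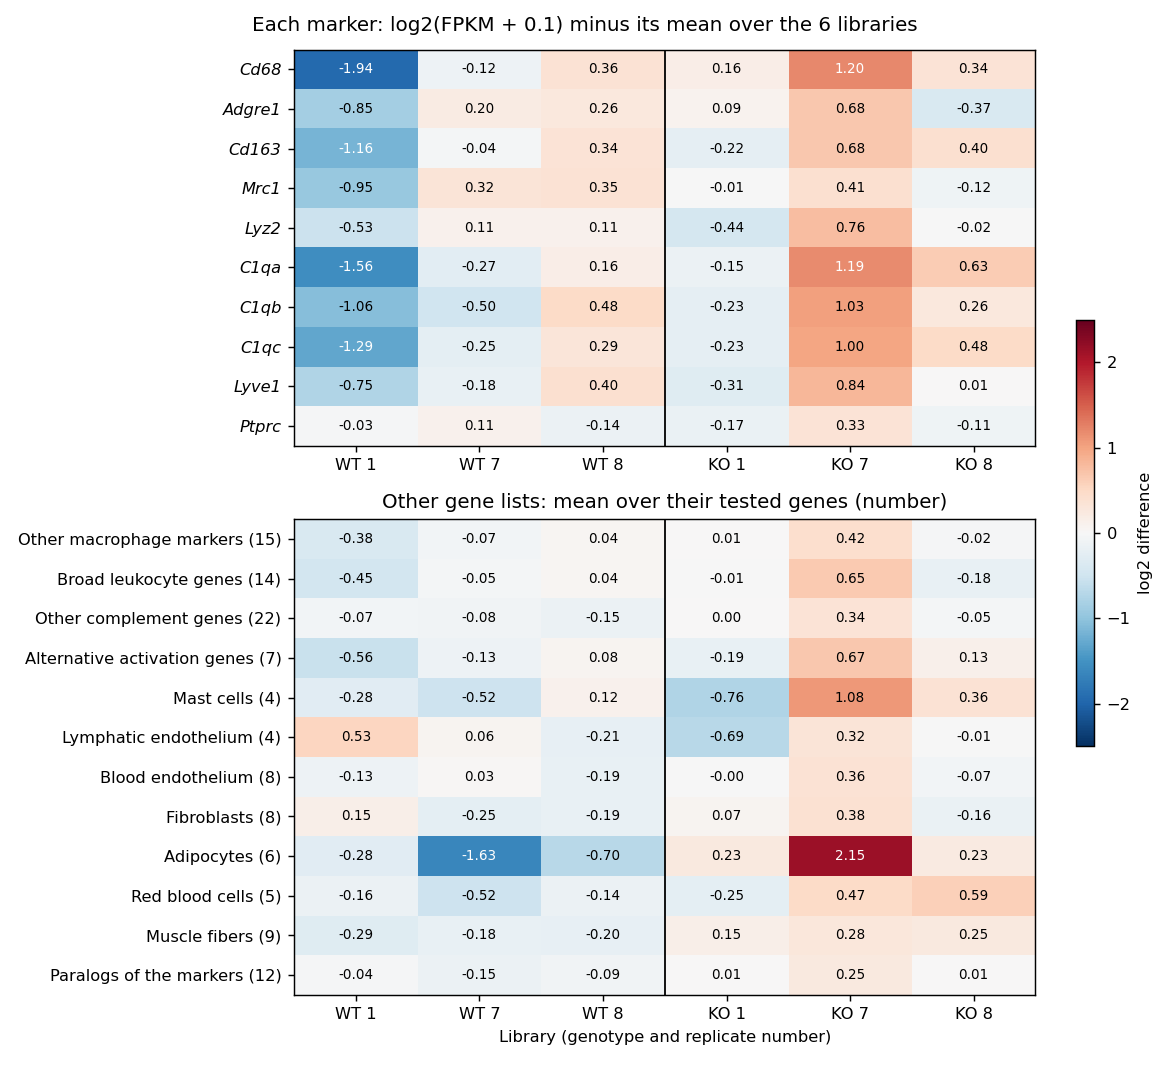
Deviation of each marker (upper panel) and of the mean of each other gene list (lower panel) from its own mean over the 6 libraries, on the log2(FPKM + 0.1) scale, with libraries as columns and the number of tested genes in parentheses. The column of WT 1 is below 0 for every marker and that of KO 7 above 0 for every marker, and the adipocyte list reaches 2.15 in KO 7.

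The C1q genes lie side by side on the minus strand of chromosome 4 (GRCm38), from 136880129 to 136898803, a stretch of 18675 bases that is 15.5 Mb from *Kcnab2*. *C1qb* spans 136880129 to 136886187, *C1qc* 136889804 to 136893065 and *C1qa* 136895917 to 136898803. Sequence before the RefSeq start sites of *C1qb* and *C1qc*, the C1q genes with an entry there, is shown 5′ to 3′ on the minus strand of GRCm38.p6, at chr4:136886201-136886450 and chr4:136893066-136893164, as far as it lies outside the annotated gene. Capitals mark GAGGAA or its reverse TTCCTC, letters of the core that the myeloid factor PU.1 recognizes.
C1qb: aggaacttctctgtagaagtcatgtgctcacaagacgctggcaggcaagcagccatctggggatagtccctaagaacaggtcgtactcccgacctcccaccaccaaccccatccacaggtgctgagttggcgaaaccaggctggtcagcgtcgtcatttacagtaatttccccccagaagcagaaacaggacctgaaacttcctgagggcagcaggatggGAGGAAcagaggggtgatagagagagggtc
C1qc: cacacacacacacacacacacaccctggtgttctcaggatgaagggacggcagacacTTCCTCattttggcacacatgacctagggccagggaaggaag
The match starts 30 bases before the *C1qb* start site and 193 bases before that of *C1qc*.

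*C1qa*, the A chain, had 1.25, 3.18 and 4.33 FPKM in WT 1, 7 and 8 and 3.47, 8.92 and 6.03 FPKM in KO 1, 7 and 8. KO 7 and KO 8 lay above every WT library, while KO 1 lay between WT 7 and WT 8. The group means were 2.92 ± 1.56 FPKM in WT and 6.14 ± 2.73 FPKM in KO (SD, n = 3 each). The log2 fold change was 1.11 (SE 0.49, 95% interval -0.024 to 2.25; limma, unadjusted p = 0.0539, adjusted p = 0.197), and 0.52 after correction for GC content, *C1qa* having the highest GC content of the 10 markers at 59.52%. About 25 fragments stood behind the WT 1 value (95% Poisson interval 16.2 to 36.9, counting error only) and about 168 behind that of KO 7 (144 to 195).

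*C1qb*, the B chain, had 2.37, 3.54 and 7.08 FPKM in WT 1, 7 and 8 and 4.29, 10.4 and 6.06 FPKM in KO 1, 7 and 8. WT 8 was the second highest of the 6 libraries, so the groups overlapped. Its log2 fold change was 0.71 (SE 0.44, 95% interval -0.31 to 1.74, limma adjusted p = 0.333), and 0.24 after the GC correction. *C1qc*, the C chain, had 1.80, 3.82 and 5.61 FPKM in WT and 3.88, 9.19 and 6.40 FPKM in KO, with the libraries in the same order as for *C1qa*. KO 1 lay between WT 7 and WT 8, as it did for the other two chains. The log2 fold change of *C1qc* was 0.83 (SE 0.44, 95% interval -0.20 to 1.87, limma adjusted p = 0.266), and 0.41 after the GC correction.

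The proportions of the chains held steadier than their amount. The summed FPKM of the 3 genes was 5.41, 10.54 and 17.0 in WT and 11.6, 28.5 and 18.5 in KO, a 5.26-fold range. *C1qc* made up 32.3% to 36.2% of that sum, *C1qb* 32.8% to 43.7% and *C1qa* 23.0% to 32.6%. The ratio of *C1qa* to *C1qc* was 0.691, 0.834 and 0.771 in WT and 0.892, 0.970 and 0.943 in KO. Those groups did not overlap. The exact permutation p was 0.1, and 0.382 after adjustment over the 21 ratios and sums compared. Since 0.1 is the smallest p that 3 against 3 libraries can give, no ratio could pass this test, and it decides nothing here. Other ratios among the 21 gave the same p.

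*Cd68* encodes a heavily glycosylated membrane protein of macrophage lysosomes. It lies on chromosome 11 (69664213 to 69666153, minus strand). The sequence before its start site at chr11:69666171-69666420, minus strand, is set beside that of *Mrc1* at chr2:14229164-14229391, plus strand, as the markers that differed most in fitted change, with the same letters in capitals.
Cd68: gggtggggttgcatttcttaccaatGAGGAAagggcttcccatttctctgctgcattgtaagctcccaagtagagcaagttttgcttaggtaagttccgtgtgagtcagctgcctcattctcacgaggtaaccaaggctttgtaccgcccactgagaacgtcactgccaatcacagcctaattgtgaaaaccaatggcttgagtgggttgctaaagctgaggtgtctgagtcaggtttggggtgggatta
Mrc1: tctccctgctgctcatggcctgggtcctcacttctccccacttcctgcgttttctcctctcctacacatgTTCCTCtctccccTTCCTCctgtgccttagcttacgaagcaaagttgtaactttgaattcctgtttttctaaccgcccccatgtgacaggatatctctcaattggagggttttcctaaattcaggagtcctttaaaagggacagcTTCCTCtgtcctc
*Cd68* has 1 match 225 bases before its start site, and a second one in the 50 bases after it, which is not shown. *Mrc1* has 3, at 180, 167 and 35 bases before its start site. In windows of 300 bases, 250 before and 50 after the start, 5 of the 7 markers with a RefSeq promoter entry held these letters on either strand (*Cd68*, *Mrc1*, *C1qb*, *C1qc*, and *Ptprc* at 1 of its 2 starts), as did 28.3% of 32851 promoters. TGCTGA or its reverse TCAGCA, letters recognized by MAF factors, was found in 2 of the 7, *Lyz2* and *C1qb*, and in 19.5% of promoters. The C/EBP palindrome TTGCGCAA was found in 0 of the 7 and in 0.183% of promoters. Entries for *C1qa*, *Adgre1* and *Lyve1* were not used here.

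*Cd68* had 0.313, 1.36 and 1.93 FPKM in WT 1, 7 and 8 and 1.68, 3.56 and 1.91 FPKM in KO 1, 7 and 8. WT 1 was far below the other libraries and WT 8 was the second highest, a 6.17-fold range among WT mice. At most about 8 fragments stood behind the WT 1 value (95% Poisson interval 3.45 to 15.8). The log2 fold change was 1.13 (SE 0.59, 95% interval -0.24 to 2.51, limma adjusted p = 0.257), the largest of the 9. It was 0.45 without WT 1 and 0.82 without KO 7.

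*Lyz2*, lysozyme of the myeloid lineage, was the most abundant marker. Its gene spans 117277331 to 117282321 on chromosome 10 (minus strand). It had 13.7, 21.4 and 21.5 FPKM in WT 1, 7 and 8 and 14.6, 33.8 and 19.7 FPKM in KO 1, 7 and 8. KO 1 and KO 8 lay within the WT range and KO 7 above it. The log2 fold change was 0.21 (SE 0.32, 95% interval -0.53 to 0.94, limma adjusted p = 0.702), and -0.12 without KO 7. The ratio of *Lyz2* to *Cd68* was 43.8, 15.7 and 11.1 in WT and 8.74, 9.52 and 10.3 in KO (exact p = 0.1, the smallest possible, adjusted 0.382). Relative to the other libraries, WT 1 was lower in *Cd68* than in *Lyz2*. The size of that ratio is uncertain, since its *Cd68* value rests on at most about 8 fragments (95% Poisson interval 3.45 to 15.8).

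Of the surface receptors, *Cd163* takes up complexes of hemoglobin and haptoglobin, *Mrc1* encodes the mannose receptor CD206, *Lyve1* a hyaluronan receptor shared with lymphatic vessels, and *Adgre1* the adhesion receptor known as F4/80. *Cd163* (chromosome 6, 124304656 to 124330527, plus strand) had 0.620, 1.46 and 1.94 FPKM in WT 1, 7 and 8 and 1.28, 2.47 and 2.03 FPKM in KO 1, 7 and 8. KO 7 and KO 8 were the highest, but WT 8 came close to KO 8. Its log2 fold change was 0.58 (SE 0.41, 95% interval -0.39 to 1.54, limma adjusted p = 0.404).

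*Mrc1* (chromosome 2, 14229392 to 14332057, plus strand, overlapping the microRNA gene *Mir511*) had 0.904, 2.33 and 2.39 FPKM in WT and 1.83, 2.48 and 1.69 FPKM in KO. KO 7 lay just above WT 7 and WT 8, KO 1 and KO 8 lay below them, and WT 1 was the lowest. The log2 fold change was 0.19 (SE 0.37, 95% interval -0.67 to 1.04, limma adjusted p = 0.772), and -0.24 without WT 1. *Mrc1* had a GC content of 41.29%, the lowest of the tested markers, and its log2 fold change after the GC correction was 0.51. The ratio of *C1qa* to *Mrc1* was 1.38, 1.37 and 1.81 in WT and 1.90, 3.59 and 3.56 in KO (exact p = 0.1, adjusted 0.382), but after the GC correction the log2 fold changes of these genes were 0.52 and 0.51. Across the 9 tested markers, log2 fold change and GC content had a Spearman's rho of 0.717 before and -0.217 after the correction. Across all 11985 tested genes of known GC content it was 0.704 before and 0.0123 after, genes not being independent replicates. The correction removes each library's trend on GC content, so a small value over all genes after it is fixed by construction. The shift that the correction gives a marker depends only on that marker's GC content, so the fall among the markers comes from the same subtraction. What produced the trend on GC content was not tested.

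*Lyve1* (chromosome 7, 110850607 to 110863239, minus strand) had 1.32, 2.003 and 3.04 FPKM in WT and 1.83, 4.16 and 2.30 FPKM in KO. WT 8 was above KO 1 and KO 8. The log2 fold change was 0.36 (SE 0.37, 95% interval -0.51 to 1.23, limma adjusted p = 0.562). *Adgre1* (chromosome 17, 57358691 to 57483527, plus strand) had 0.391, 0.918 and 0.960 FPKM in WT and 0.845, 1.32 and 0.586 FPKM in KO. KO 1 and KO 8 lay below WT 7 and WT 8. Its log2 fold change was 0.27 (SE 0.41, 95% interval -0.70 to 1.23, limma adjusted p = 0.708), and it was -0.095 without WT 1.

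*Ptprc* encodes CD45, the tyrosine phosphatase carried by all white blood cells. It lies on chromosome 1 (138062861 to 138175708, minus strand) and overlaps an unclassified gene on the same strand. It had 0.359, 0.404 and 0.323 FPKM in WT 1, 7 and 8 and 0.315, 0.489 and 0.334 FPKM in KO 1, 7 and 8, under the floor of the test. WT 1 was not low here, and the range over all 6 libraries was 1.55-fold. Among the tested markers that range ran from 2.46-fold for *Lyz2* to 11.3-fold for *Cd68*. The group means of 0.362 ± 0.0407 and 0.379 ± 0.0950 FPKM (SD, n = 3) gave p = 0.9 in an exact permutation test (two-sided).

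**Figure D3:**
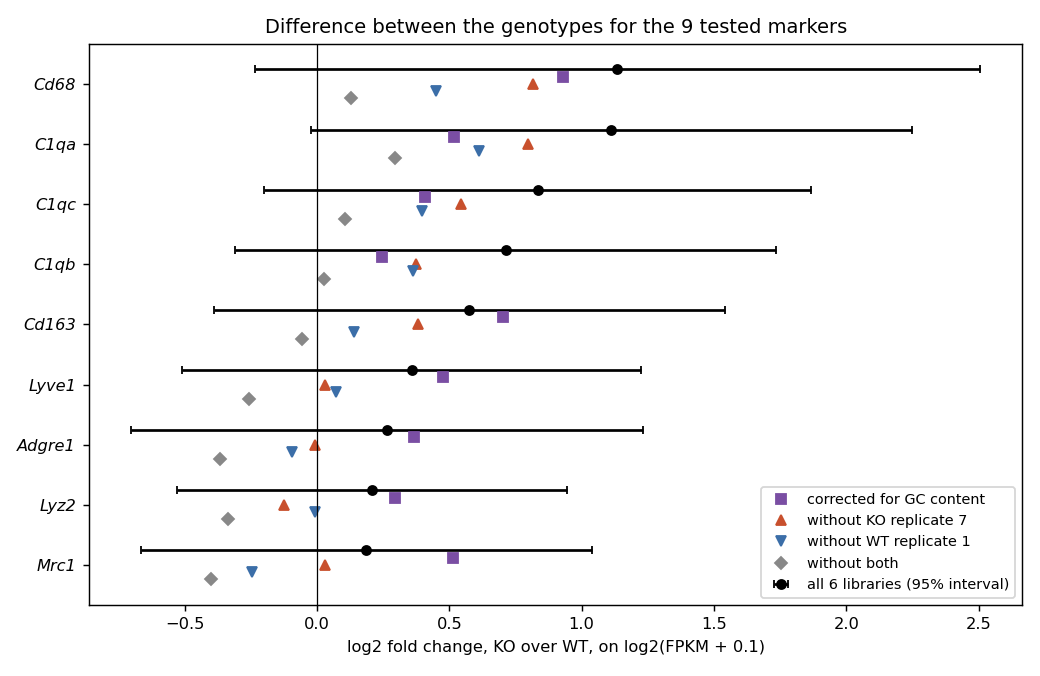
Fitted log2 fold change, KO over WT, of the 9 tested markers with 95% intervals (limma), and the same value after correction for GC content, without KO 7, without WT 1 and without both. Every interval includes 0, from *C1qa* (-0.024 to 2.25) to *Mrc1* (-0.67 to 1.04).

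By level, the mean over the 6 libraries fell from *Lyz2* through *C1qb*, *C1qc*, *C1qa*, *Lyve1*, *Mrc1*, *Cd68*, *Cd163* and *Adgre1* to *Ptprc*. *Lyz2* was above *C1qb* in 6 of 6 libraries, *C1qc* above *C1qa* in 6, *Cd163* above *Adgre1* in 6 and *Adgre1* above *Ptprc* in 6. *C1qa* was above *Lyve1* in 5. The neighbours *C1qb* and *C1qc*, *Lyve1* and *Mrc1*, *Mrc1* and *Cd68*, and *Cd68* and *Cd163* did not differ beyond their spread, the mean log2 ratio of each pair being smaller than its SD over libraries.

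Other genes of macrophages and monocytes were read from a list of 25, of which 15 were tested and 0 called, with 11 fitted above 0 and 4 below and a median of 0.37. KO 7 was highest for 9 and WT 1 lowest for 6. *Csf1r*, the receptor through which macrophages receive their survival signal, had 1.28, 2.85 and 3.87 FPKM in WT and 2.29, 5.50 and 3.12 FPKM in KO, with the libraries in the same order as for *Lyve1*. *Cd14*, a coreceptor for lipopolysaccharide, was at 0.510, 0.446 and 0.555 FPKM in WT and 0.707, 1.23 and 0.920 FPKM in KO, without overlap, with a log2 fold change of 0.78 (limma adjusted p = 0.159). *Stab1*, a scavenger receptor also found on endothelium, lay the other way, at 7.80, 5.07 and 5.86 FPKM in WT and 5.05, 4.73 and 3.90 FPKM in KO (log2 fold change -0.43, limma adjusted p = 0.193). Corrected for GC content, *Cd14* and *Stab1* had log2 fold changes of 0.59 and -0.85 (limma adjusted p = 0.490 and 0.296). The most abundant genes of the list, *Maf* and *Cbr2*, had log2 fold changes of -0.31 and 0.12 (limma adjusted p = 0.417 and 0.819).

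Of 20 broad leukocyte genes, 14 were tested and 0 called, 9 above and 5 below 0, with a median of 0.14. *Tyrobp*, a signalling adaptor of myeloid cells, was at 2.199, 3.20 and 4.03 FPKM in WT and 1.62, 5.09 and 2.89 FPKM in KO. *Coro1a*, an actin regulator of leukocytes, was higher in each KO than in each WT library, with a log2 fold change of 0.77 (limma adjusted p = 0.139) and of 0.25 after the GC correction. Of 25 complement components, receptors and regulators other than C1q, 22 were tested and 0 called, 13 above and 9 below 0, with a median of 0.089. *Cfd*, complement factor D, which fat cells secrete, was at 17.8, 3.92 and 10.6 FPKM in WT and 27.9, 89.0 and 24.6 FPKM in KO, without overlap (log2 fold change 2.11, limma adjusted p = 0.107). In all, 6 of the 22 tested genes were without overlap and higher in KO, where 18.3% of all tested genes were. Another 3 were without overlap and lower, where 16.2% of all tested genes were. *Lrp1*, a large endocytic receptor, was among the higher, with a log2 fold change of 0.83 (limma adjusted p = 0.114). *Cd55*, a membrane inhibitor of complement, was among the lower, at 35.8, 35.4 and 32.6 FPKM in WT and 28.3, 20.2 and 26.1 FPKM in KO (log2 fold change -0.49, limma adjusted p = 0.104). So was *Cd46*, another membrane inhibitor, with a log2 fold change of -0.75 (limma adjusted p = 0.155). After the GC correction, the log2 fold changes of *Cfd*, *Lrp1*, *Cd55* and *Cd46* were 1.56, 0.36, -0.19 and -0.33.

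Of 12 genes of classical macrophage activation, 2 were tested and 0 called, 1 above and 1 below 0, and *Cd38*, an enzyme that consumes NAD, was at 3.25, 2.67 and 2.59 FPKM in WT and 2.06, 1.30 and 1.69 FPKM in KO (log2 fold change -0.74, limma adjusted p = 0.0944). Of 12 genes of alternative activation, 7 were tested and 0 called, 6 above 0, with a median of 0.60, and of 0.21 after the GC correction. Their most abundant gene, *Retnla*, a secreted resistin-like protein, was at 28.6, 43.7 and 42.1 FPKM in WT and 23.8, 51.4 and 33.8 FPKM in KO (log2 fold change -0.11, limma adjusted p = 0.829). Of 18 paralogs of the markers, 12 were tested and 0 called, 9 above and 3 below 0, with a median of 0.15.

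Markers of other leukocytes were mostly under the floor. For T cells 1 of 9 genes was tested, for B cells 1 of 6, for natural killer cells 0 of 5, for neutrophils 1 of 7 and for dendritic cells 1 of 6, and none of these was called. The B cell gene above the floor was *Ighm*, the heavy chain of IgM, at 55.6, 118 and 110 FPKM in WT and 136, 57.8 and 85.3 FPKM in KO, above every marker described here in each library and with overlapping groups (log2 fold change -0.038, limma adjusted p = 0.960). *Pax5* of B cells, *Nkg7* and *Gzma* of natural killer cells and *Ly6g* and *Elane* of neutrophils were listed at 0 in all 6 libraries. Other genes of these lists were above 0 in all 6: *Cd79b* of B cells (0.0494 to 0.280 FPKM), and *S100a9* (0.271 to 0.793) and *Csf3r* (0.0436 to 0.324) of neutrophils. *Ncr1* and *Klrb1c* of natural killer cells were above 0 in some libraries. Mast cell genes were 4 of 6 tested and 0 called, with KO 7 highest for all 4, and their summed FPKM was 8.31, 6.67 and 9.83 in WT and 5.51, 19.995 and 11.9 in KO.

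Of the tissue's other cells, 6 of 6 adipocyte genes were tested, 0 called and 6 above 0, with a median log2 fold change of 1.83. Their summed FPKM was 426, 230 and 226 in WT and 276, 534 and 315 in KO. KO 7 was highest for all 6, as it was for the macrophage markers, while WT 1 was lowest for 1. Lymphatic endothelium had 4 of 6 genes tested, 1 above and 3 below 0, with a median of -0.30, and WT 1 was lowest for 0 of them, unlike for *Lyve1*. Blood endothelium (8 of 8 tested, median 0.15), fibroblasts (8 of 8, median 0.0044), red blood cells (5 of 5, median 0.23) and muscle fibers (9 of 9, median 0.59) had 0 calls. Muscle fiber genes summed to 31259 to 44946 FPKM in WT, WT 1 being the lowest, and to 47116 to 51207 FPKM in KO, so the tissue is muscle by its markers. The part of fat, mast cells, muscle fiber RNA and GC content in the values of the macrophage markers was not tested.

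**Figure D4:**
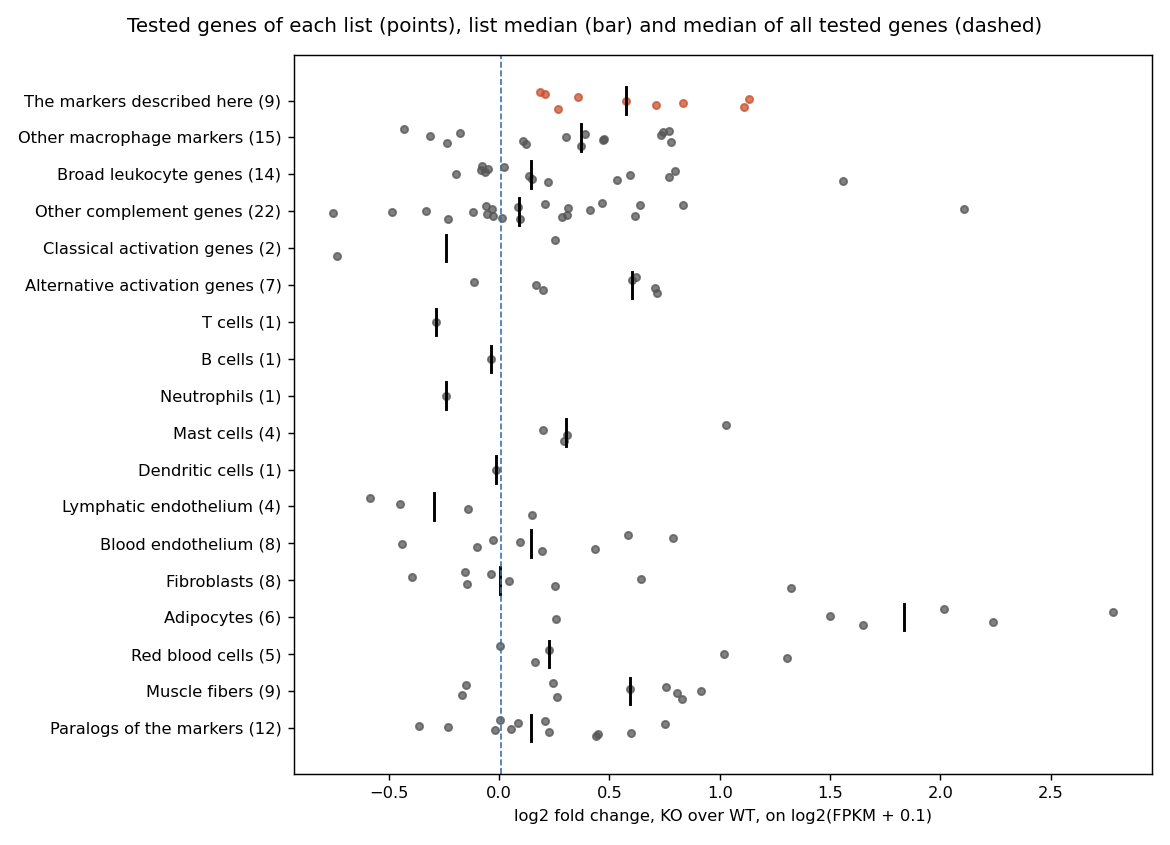
Fitted log2 fold change, KO over WT, of each tested gene (points) in the 9 tested markers and the other gene lists, with list medians as bars and the median of all 12334 tested genes as a dashed line. The macrophage and leukocyte markers lie between 0.19 and 1.13 with a median of 0.58, and the adipocyte genes have a median of 1.83.

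Outside the lists, the genes whose profile over the 6 libraries was nearest to the mean of *C1qa*, *C1qb* and *C1qc* were *Psmg3* (root mean square difference of 0.123 on the log2 scale), *Nbeal2* (0.209), *Rac3* (0.221), *Rap1gap* (0.226) and *Pgls* (0.253). Nearest to the mean of the 9 tested markers were *Psmg3* (0.116), *Col5a3* (0.168), *Tspan9* (0.182), *Nr1h3* (0.184) and *Fcgr3* (0.191). *Psmg3*, a proteasome assembly factor, had 1.33, 2.55 and 3.91 FPKM in WT and 2.53, 5.61 and 3.996 FPKM in KO. *Fcgr3*, a receptor for IgG on myeloid cells, had 0.727, 2.04 and 2.29 FPKM in WT and 1.85, 2.68 and 1.88 FPKM in KO. These values only describe likeness over 6 libraries, which differ in depth and in GC trend as given above.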

How the data were processed

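GAS muscle RNA from 3 WT and 3 KO mice was sequenced as paired-end reads from a stranded mRNA kit, 1 library per mouse. Per the labels and the methods, the authors mapped reads to GRCm38 with TopHat and computed the deposited FPKM values with Cufflinks. Tool versions and the annotation release were not given in the sources used here. Depth was estimated from genes with 1 transcript of 1500 to 6000 bases, whose low values fell on whole fragments within 0.15 for 89.2% to 92.8% of values.

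Genotypes were compared with limma 3.58.1 (R 4.3.3) on log2(FPKM + 0.1), which understates changes of low genes, with a variance trend, above a floor of 0.5 FPKM on a gene's mean, adjusted by Benjamini and Hochberg over all 12334 tested genes. No covariate was used. Single values had exact two-sided permutation tests. GENCODE vM21 (GRCm38) gave coordinates and GC content, the latter known for 97.2% of tested genes. The correction subtracted from each library a loess curve on GC (span 0.3). The fit was tried on simulated data for 11987 genes, modelled on genes above 0 in every library. Of these, 200 were changed by more than the largest log2 fold change fitted for a marker. The fit recovered 87.5% of them, with 12 false calls. Recovery of differences as small as those fitted for the markers, with the markers' spread between mice, was not tested.

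The markers and the 18 other lists (193 genes) were chosen with earlier results of these data known. Named from each list were its 2 most abundant genes and up to 2 without overlap in each direction, of which those bearing on the markers are given, and the 5 genes most like them. *Csf1r* and the genes listed at 0 were chosen after their values were seen. Alternatives to pseudocount, floor, scaling, variance model, GC, replicate block and libraries were computed. Poisson intervals on fragments cover counting error only, while limma's intervals rest on the spread between mice.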

Additional observations from a re-analysis of the deposited data

How the results depend on the processing

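None of the 9 tested markers was called under any of 19 other settings or the 1 added after the values were seen. The lowest adjusted p of any was 0.0681, for *C1qa*, whose range was 0.0681 to 0.659. The count of genes called, 40, was 11 with a pseudocount of 1, 20 with no floor, 18 with upper-quartile scaling, 19 with no variance trend, 3147 with array weights, 1 without genes listed at 0 in any library, 14 with the GC correction and 15 without both KO 7 and WT 1. It was 126 without WT 8 and 15 to 19 without any other single library. Each of these fits has fewer libraries, so the lower counts need not point to a particular library. Markers at an unadjusted p under 0.05, 0 in the report, were 3 with array weights, 1 without genes listed at 0 and 0 to 4 when a library was left out, 4 without WT 8. The share of all tested genes at that threshold was 26.2% in the main fit and is not given for these settings. These counts are therefore not read as a result about the markers. The median log2 fold change of the 9 tested markers ran from 0.14, without WT 1, to 0.89 when a library was left out, and was -0.055 without both KO 7 and WT 1. Array weights turned *Adgre1* to -0.26, *Mrc1* to -0.28 and *Lyz2* to -0.065. Without KO 7, *Adgre1* was -0.0082 and *Lyz2* -0.12, and without WT 1, *Adgre1* was -0.095, *Mrc1* -0.24 and *Lyz2* -0.0059. Without both, *Adgre1* was -0.37, *Cd163* -0.055, *Mrc1* -0.40, *Lyz2* -0.34 and *Lyve1* -0.26. *Cd68* and the C1q genes stayed above 0 in all 20 of these settings. The highest values with a library left out were 0.52 for *Adgre1*, 0.41 for *Mrc1*, 0.48 for *Lyz2* and 0.65 for *Lyve1*. The cause of these changes was not tested.

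Over genes, libraries with the same number did not deviate together from their group means (correlations of -0.025, -0.080 and 0.034 for numbers 1, 7 and 8). Between different numbers the correlations were -0.066 to 0.086. This cannot show whether mice of the same number were linked in another way, which the labels do not give. With the replicate block, 13 genes were called and 3 markers had an unadjusted p under 0.05, and with the block and the GC correction 12 and 2. The share of all tested genes at that unadjusted threshold is not given for these fits either. The value of *Cd68* in WT 1 rests on at most about 8 fragments.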
